A study of Mus musculus with 6 samples.

Results

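Small nucleolar RNA (snoRNA) host genes are transcribed genes whose introns carry snoRNAs. The 8 described here, Snhg1, Snhg3, Snhg5, Snhg6, Snhg8, Snhg12, Snhg15 and Gas5, were taken by symbol from the 46333 genes of the files, and the set was chosen by a reading of values of these same libraries. Their host levels are therefore given as a description, with no test. The tissue was mouse bone marrow: 3 libraries came from mice put through chronic unpredictable mild stress (CUMS, a rodent depression procedure of changing mild stressors) for 4 weeks, and 3 from negative control mice without it. Strain, sex and age are not given in the sources used here, and neither is whether a library came from 1 animal.

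All 8 host genes had at least 1 FPKM (fragments scaled by transcript length and by library total) in all 6 libraries. No label names the unit, and the deposited values were read as FPKM. Depth in counts was unknown, so no counting interval is given, and precision rests on the spread between libraries. The marrow label held against its markers: the 10 neutrophil markers summed to 53100 to 56300 FPKM in CUMS libraries and 50500 to 70100 FPKM in control libraries, and the 8 erythroid markers to 191000 to 233000 FPKM in CUMS libraries and 164000 to 195000 FPKM in control libraries. None of the markers of the 8 marrow cell types examined was at 0 in any library. A code in the file headers, of unstated meaning, was 1 in replicate 1 of both groups and 2 in the other 4 libraries, and the level of 3747 of the 12302 entries tested differed between the codes at an adjusted p under 0.05 (limma). In bulk marrow, fewer cells of a type and less RNA per cell cannot be told apart.

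Once a host transcript is spliced, the snoRNA is trimmed out of the intron and joins a small ribonucleoprotein in the nucleolus. C/D box snoRNAs guide ribose methylation of ribosomal RNA and H/ACA box snoRNAs guide pseudouridylation. The spliced host RNA often begins with a terminal oligopyrimidine (TOP) tract, as do mRNAs of ribosomal proteins, is bound by ribosomes and is degraded by nonsense-mediated decay. Gas5 is known in human cells as an RNA that binds the glucocorticoid receptor, the sensor of the stress hormone cortisol.

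In the GRCm38 annotation the hosts were compact genes of 785 to 3939 bp. Snhg1 lies at chr19:8723487-8726326 on the plus strand, with 10 exons and a snoRNA in 8 of its 9 introns. Gas5 lies at chr1:161034601-161038539 on the plus strand, with 12 exons and 8 intronic snoRNAs. Snhg12 (chr4:132308678-132311024, plus strand) holds 4 snoRNAs, Snhg3 (chr4:132351933-132353686, minus strand) and Snhg5 (chr9:88521052-88522897, minus strand) hold 2 each, and Snhg6 (chr1:9942025-9944118, minus strand) and Snhg15 (chr11:6525591-6528760, minus strand) hold 1 each. Snhg8 (chr3:123507552-123508336, minus strand) is annotated with 1 exon, and its snoRNA, Snora24, lies in that exon. The snoRNA label thus held for all 8 genes, and 26 of their 27 snoRNA entries were intronic.

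The 8 snoRNAs of the Snhg1 introns are printed because the largest snoRNA differences of the hosts were found there. They are the GENCODE M21 transcripts, between chr19:8723993 and chr19:8725991 on the plus strand of GRCm38, in the order of the introns. Capitals mark TGAT, the core of the C box, in the first 20 bases and CTGA, the D box, in the last 20 bases, searched on the transcript strand.
LOC115489078: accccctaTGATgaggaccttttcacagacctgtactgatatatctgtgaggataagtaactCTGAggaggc
LOC115489084: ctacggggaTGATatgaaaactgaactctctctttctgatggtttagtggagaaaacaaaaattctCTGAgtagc
LOC115489083: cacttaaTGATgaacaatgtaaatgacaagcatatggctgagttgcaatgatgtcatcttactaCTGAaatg
LOC115489082: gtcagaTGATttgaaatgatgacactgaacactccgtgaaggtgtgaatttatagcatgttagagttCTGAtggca
LOC115489081: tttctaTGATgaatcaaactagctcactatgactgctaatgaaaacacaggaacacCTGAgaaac
LOC115489086: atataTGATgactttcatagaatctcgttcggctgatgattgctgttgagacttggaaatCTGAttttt
LOC115489087: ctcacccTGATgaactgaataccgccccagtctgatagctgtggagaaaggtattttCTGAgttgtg
Snord22: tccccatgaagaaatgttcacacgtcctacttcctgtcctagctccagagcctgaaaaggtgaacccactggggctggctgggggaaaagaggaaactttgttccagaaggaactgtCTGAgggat
In 7 of the 8, TGAT stood near the start and CTGA near the end, and the runs between them differed from snoRNA to snoRNA. Snord22, the longest of them, has CTGA near its end and no TGAT in the window searched. Entries with a LOC symbol were matched to GENCODE by position, and the deposited entry of LOC115489083 covers 70 of the 72 bases printed. Over all 27 entries of the 8 hosts, both motifs were found in 7 of 8 named Snord, in 0 of 7 named Snora, the H/ACA class, and in 12 of 12 with neither name. They were found in 24.2% of the 1507 snoRNA genes of GENCODE M21. The positions were alike too: 21 of the 26 intronic entries ended 65 to 82 bases before the next exon. These bounds are the smallest and largest distance among the 21, so the count describes them and tests nothing. No share over other intronic snoRNAs is given beside it.

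The promoters were read from the RefSeq table of GRCm38.p6, which had 8 starts for 7 of the 8 genes, all but Snhg6, and Gas5 with an upstream and a downstream start. The windows below run from 50 bases before to 50 bases from the start of transcription, and are printed to show what the starts of these genes share. Any link between these sequences and the host levels was not tested. Capitals mark a TATA-like motif (the letters TATAAA, the letters TATATA or the letters TTTATA, on either strand, starting 45 to 15 bases before the start) and a pyrimidine run (5 or more C or T in a row starting between 10 bases before and 15 bases after the start).
Snhg1: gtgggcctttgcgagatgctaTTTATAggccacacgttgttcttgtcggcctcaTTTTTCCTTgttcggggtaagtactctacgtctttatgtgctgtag
Snhg3: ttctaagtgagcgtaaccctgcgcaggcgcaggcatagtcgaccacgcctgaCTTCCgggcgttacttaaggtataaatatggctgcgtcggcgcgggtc
Snhg5: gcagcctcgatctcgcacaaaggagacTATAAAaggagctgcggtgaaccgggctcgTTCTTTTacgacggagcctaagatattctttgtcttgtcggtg
Snhg8: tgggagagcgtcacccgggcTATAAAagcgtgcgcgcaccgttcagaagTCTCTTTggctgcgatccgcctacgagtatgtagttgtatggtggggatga
Snhg12: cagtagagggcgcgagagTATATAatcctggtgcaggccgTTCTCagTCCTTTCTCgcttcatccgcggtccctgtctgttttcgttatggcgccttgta
Snhg15: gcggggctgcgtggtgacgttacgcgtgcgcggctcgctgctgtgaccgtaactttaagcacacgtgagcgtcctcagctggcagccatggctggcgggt
Gas5 (upstream start): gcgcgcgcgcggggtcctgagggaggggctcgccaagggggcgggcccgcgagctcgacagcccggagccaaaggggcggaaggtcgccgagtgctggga
Gas5 (downstream start): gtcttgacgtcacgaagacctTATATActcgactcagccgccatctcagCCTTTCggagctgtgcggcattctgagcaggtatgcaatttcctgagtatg
The windows lie at chr19:8723437-8723536 for Snhg1, chr4:132353637-132353736 for Snhg3, chr9:88522848-88522947 for Snhg5, chr3:123508287-123508386 for Snhg8, chr4:132308628-132308727 for Snhg12 and chr11:6528711-6528810 for Snhg15. Those of Gas5 lie at chr1:161034551-161034650 and chr1:161035116-161035215. Snhg1, Gas5 and Snhg12 are on the plus strand and the others on the minus strand. A TATA-like motif was present in 5 of the 8 windows, against 3.8% of the 32851 promoters of the table, and a pyrimidine run in 6 of the 8, against 44.1%. At Gas5 both were found at the downstream start and neither at the upstream one. The motif definitions were set after these promoters had been read, so the counts describe the sequences and test nothing.

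The 8 hosts were higher in CUMS marrow than in control marrow by 0.17 to 0.50 on the log2 scale. Snhg3, Snhg1, Snhg5 and Snhg8 had the greater differences, and Gas5, the most abundant, the least. Every CUMS library was above every control library for Snhg1, Snhg3 and Snhg5. The 8 levels summed to 309, 355 and 345 FPKM in CUMS replicates 1, 2 and 3, against 306, 245 and 258 FPKM in control replicates 1, 2 and 3.

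Snhg1, known as the U22 host gene, was at 62.6, 59.6 and 63.0 FPKM in CUMS libraries, against 51.3, 41.7 and 42.1 FPKM in control libraries. All CUMS libraries were above all control libraries, and the highest control was replicate 1. The log2 change was 0.45 ± 0.105 (SE of the limma fit, n = 3 each), on log2(FPKM + 1) as for all changes here. Snhg5, whose introns carry Snord50a and Snord50b, was at 29.2, 32.9 and 33.7 FPKM in CUMS libraries, against 24.4, 22.5 and 22.2 FPKM in control libraries. Its groups did not overlap either, and replicate 1 of CUMS and replicate 1 of the controls stood closest, with a log2 change of 0.45 ± 0.095. Snhg3, the host of the Snora73 pair, was at 23.9, 31.8 and 38.8 FPKM in CUMS libraries, against 22.9, 21.7 and 20.1 FPKM in control libraries. The gap between its groups was narrow, since CUMS replicate 1 stood just above control replicate 1, and the change was 0.50 ± 0.166.

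In the other 5 hosts the groups overlapped. Snhg8 was at 20.8, 36.8 and 32.7 FPKM in CUMS libraries, against 20.5, 21.5 and 22.2 FPKM in control libraries. CUMS replicate 1 lay within the controls and the other CUMS libraries above them, with a log2 change of 0.44 ± 0.193. Snhg6 was at 29.9, 29.5 and 23.5 FPKM in CUMS libraries, against 31.1, 19.8 and 19.1 FPKM in control libraries. Control replicate 1 had its highest value of all, and the change was 0.26 ± 0.192. Gas5 was at 124, 139 and 132 FPKM in CUMS libraries, against 136, 103 and 112 FPKM in control libraries, where replicate 1 lay among the CUMS values. Its change was 0.17 ± 0.122.

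Snhg12 and Snhg15 were the least abundant hosts. Snhg12 was at 13, 19.2 and 14.2 FPKM in CUMS libraries, against 13.9, 10.8 and 14.3 FPKM in control libraries, with a log2 change of 0.23 ± 0.165. Only CUMS replicate 2 was above all controls. Snhg15 was at 5.79, 6.21 and 7.53 FPKM in CUMS libraries, against 5.26, 3.91 and 5.93 FPKM in control libraries, with a log2 change of 0.33 ± 0.157. CUMS replicate 1 lay below the highest control.

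**Figure D1:**
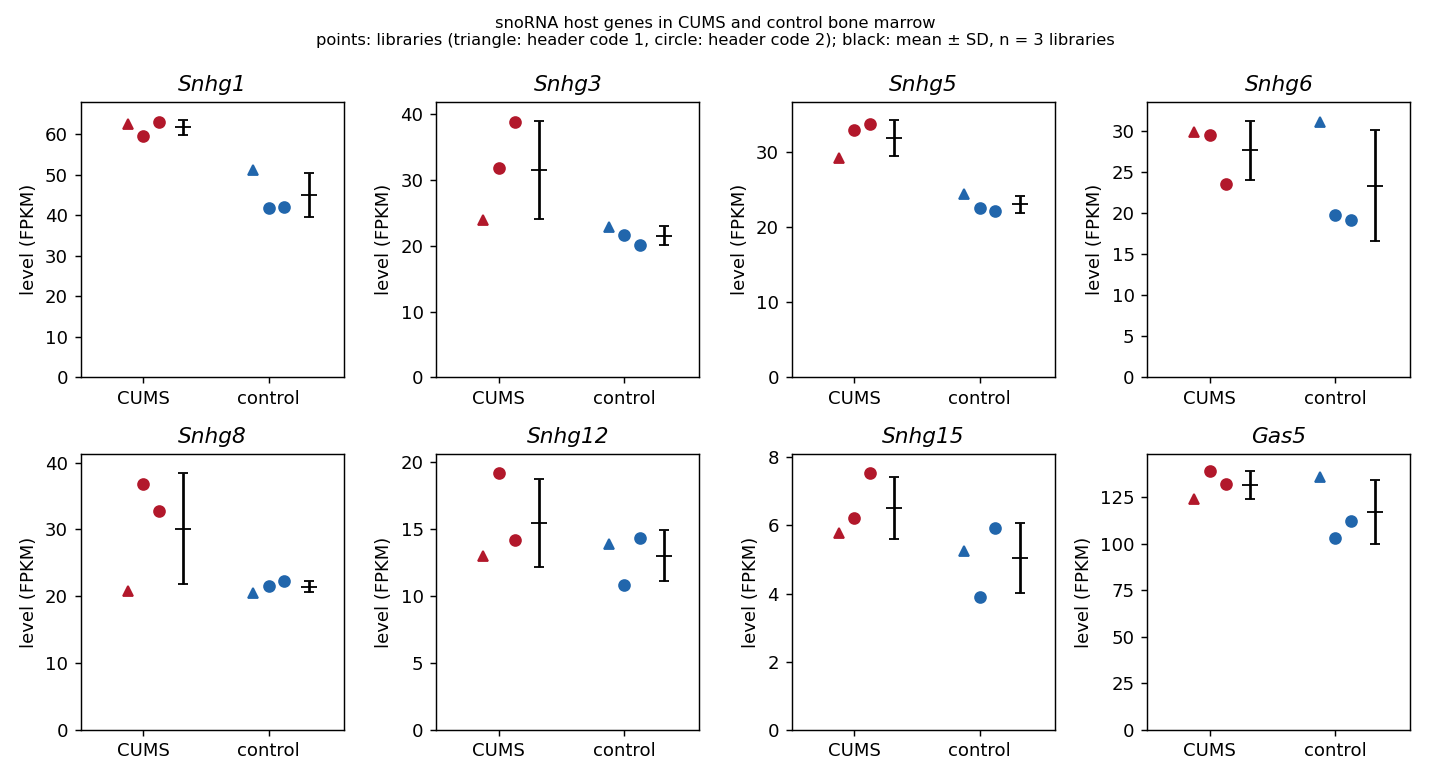
Level of each host gene (y axis, FPKM, from 0) in the 3 CUMS and 3 control libraries, with the mean and SD at the right of each group and triangles for the libraries of header code 1. CUMS and control points are apart for Snhg1, Snhg3 and Snhg5, and the triangles of the 2 groups lie close together in most panels.

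Members with a higher change were counted against the whole table. Of the 8 hosts, 3 had non-overlapping groups with CUMS above control, where 10.0% of the 12302 tested entries did. Under limma with adjustment over all entries (Benjamini-Hochberg), 1.07% of the entries passed an adjusted p of 0.05 in either direction, and 0.618% as higher in CUMS. In the blocked fit, with the replicate number as a block, 3.49% of the entries passed as higher in CUMS. The 8 hosts were selected on this contrast, so no call is given for them and nothing is read from the count of 3. The median log2 change was 0.38 over the 8 hosts and -0.002 over all tested entries.

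The host differences were greater among the libraries of header code 2 than in the pair of code 1. Between CUMS and control libraries of code 2 the log2 difference of the hosts was 0.33 to 0.72. Between CUMS replicate 1 and control replicate 1 it was -0.14 to 0.28, and it was below 0 for Snhg6, Snhg12 and Gas5. Code 1 was held by 1 library of each group, so the difference between the codes could not be tested within this pair, and the part of the code in the host levels was not tested.

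The order of the hosts by level was the same at both ends in all 6 libraries: Gas5 was first, Snhg1 second, Snhg12 seventh and Snhg15 eighth. Averaged over the 6 libraries Gas5 was at 124 FPKM, Snhg1 at 53.4, Snhg12 at 14.2 and Snhg15 at 5.77 FPKM. Snhg5, Snhg3, Snhg8 and Snhg6, at 27.5, 26.5, 25.8 and 25.5 FPKM, changed places from library to library and did not differ beyond their spread. Gas5 made up 40.0%, 39.2% and 38.1% of the summed host level in CUMS libraries, against 44.6%, 42.0% and 43.5% in control libraries, so its share was lower in every CUMS library. The share of Snhg1 was 20.3%, 16.8% and 18.3% in CUMS libraries and 16.8%, 17.0% and 16.3% in control libraries, and these overlapped.

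The snoRNA entries within the host introns were measured apart from the hosts, under their own symbols. They were higher in CUMS marrow as a group: all 26 had a log2 change above 0 and the median was 0.63. By limma, 8 of the 26 (30.8%) rose at an adjusted p under 0.05, where 0.618% of all entries did, and none fell. Of these, 6 were among the 8 of Snhg1 and 2 among the 8 of Gas5. None of the 10 in the other hosts passed, 6 of them at an unadjusted p under 0.05 in limma. The share of all entries at that unadjusted threshold is not given, so such counts, here and below, have no background and nothing is read from them. Every CUMS library was above every control library for 18 of the 26 (69.2%), against 10.0% of all entries. The entries lie in genes that were chosen on this contrast and may share reads with them. Their counts and p-values therefore describe them and are no independent evidence.

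The count of 8 depended on single libraries. It dropped to 0 when CUMS replicate 2, CUMS replicate 3 or control replicate 3 was left out and to 1 when control replicate 2 was. Leaving out replicate 1 gave 4 for the CUMS library and 9 for the control library. With the replicate block it was 14, where 3.49% of all entries were called higher. Of the snoRNA entries elsewhere in the genome, 132 of 1303 were tested, of which 112 had a log2 change above 0. Their median was 0.40, 3 were called higher (2.27%), and 38 had every CUMS library above every control library (28.8%). With the block 38 of them were called higher, against the same 3.49% of all entries, and 1 lower.

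The entries and their hosts may share reads. Of the 26, 24 overlap an exon of at least 1 other GENCODE transcript of the same host. Of all 27 entries, 25 are shorter than the 151 bp reads, so a read of full length on them extends past the entry. A read trimmed to a shorter length need not. Which molecule these reads came from was not tested. The strand use and the counting of shared reads are not given in the sources used here.

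In Snhg1, the 4 entries of highest mean level each rose in CUMS marrow. LOC115489083, in intron 3, was at 20.1, 25.8 and 23.6 FPKM in CUMS libraries, against 12.0, 11.8 and 9.23 FPKM in control libraries. Every CUMS value was above every control value, and the log2 change was 1.01 ± 0.135 (limma adjusted p = 0.0185). Snord22, in intron 8, was at 17.6, 23.2 and 20.4 FPKM in CUMS libraries, against 9.56, 12.1 and 11.0 FPKM in control libraries, with a change of 0.85 ± 0.130 (adjusted p = 0.0293, limma). LOC115489086, in intron 6, was at 15.8, 17.4 and 19.5 FPKM in CUMS libraries, against 7.04, 9.81 and 10.3 FPKM in control libraries. The groups were again apart, and the change was 0.90 ± 0.150 (limma adjusted p = 0.0387). LOC115489081, in intron 5, was at 16.6, 17.1 and 16.7 FPKM in CUMS libraries, against 8.38, 9.63 and 10.6 FPKM in control libraries, with a change of 0.76 ± 0.106 (limma adjusted p = 0.0214). Its CUMS libraries lay close together, all above the controls.

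The other 4 entries of Snhg1, outside the naming rule and given for completeness, moved the same way. LOC115489078, in intron 1, was at 8.44, 12.3 and 11.0 FPKM in CUMS libraries, against 3.97, 4.68 and 4.14 FPKM in control libraries, the largest change of the 26 at 1.12 ± 0.144 (limma adjusted p = 0.0172). LOC115489087, in intron 7, was at 20.8, 16.6 and 16.3 FPKM in CUMS libraries, against 9.49, 7.54 and 7.53 FPKM in control libraries, with a change of 1.04 ± 0.134 (limma adjusted p = 0.0172). Both had groups that did not overlap. LOC115489084 differed by 0.96 ± 0.233 (limma adjusted p = 0.111, or 0.00493 in the blocked fit) and LOC115489082 by 0.80 ± 0.164 (0.0725, or 0.0241 in the blocked fit), neither past the threshold without the block. Their levels were 8.15, 15.9 and 10.3 FPKM and 10.5, 9.69 and 10.5 FPKM in CUMS libraries, against 4.46, 6.64 and 4.71 FPKM and 5.11, 7.25 and 4.29 FPKM in control libraries. In Snhg1 the differences held within each header code: the 8 log2 differences were 0.70 to 1.07 between the libraries of code 1 and 0.68 to 1.22 between those of code 2.

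**Figure D2:**
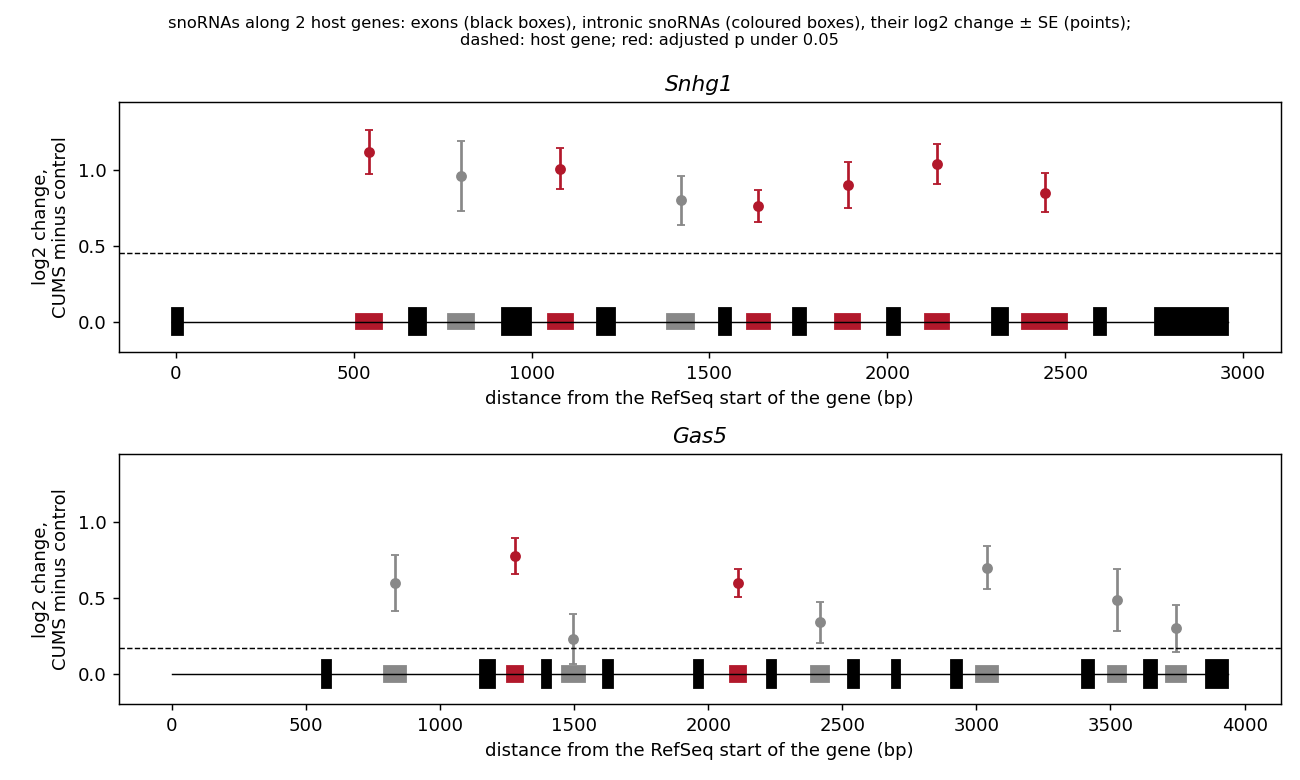
Exons (black boxes) and intronic snoRNA entries (coloured boxes) of Snhg1 and Gas5 along the gene (x axis, bp from the RefSeq start), with the log2 change of each snoRNA, CUMS minus control, and its SE above it (y axis). All 8 Snhg1 snoRNAs lie at 0.76 to 1.12, above the dashed line of the host at 0.45, and the 8 of Gas5 at 0.23 to 0.78, above its line at 0.17.

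In Gas5, 2 of 8 intronic entries were called higher, LOC115487678 in its intron 2 and LOC115487644 in its intron 5. All 8 had a log2 change above 0. In 5 every CUMS library was above every control library (62.5%, against 10.0% of all entries). With the replicate block 3 were called higher, where 3.49% of all entries were. The sequences of the 2 called without the block, which lie on the plus strand of chromosome 1, carry both motifs in capitals.
LOC115487678: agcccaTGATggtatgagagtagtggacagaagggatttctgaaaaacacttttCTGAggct
LOC115487644: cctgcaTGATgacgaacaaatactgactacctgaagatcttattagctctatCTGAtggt
LOC115487644 was at 35.6, 38.3 and 37.8 FPKM in CUMS libraries, against 23.3, 23.0 and 26.7 FPKM in control libraries, with a log2 change of 0.60 ± 0.0951 (limma adjusted p = 0.0332). LOC115487678, outside the naming rule, was at 15.9, 19.6 and 16.9 FPKM in CUMS libraries, against 9.17, 9.02 and 11.0 FPKM in control libraries, with a change of 0.78 ± 0.119 (limma adjusted p = 0.0284). In both every CUMS library was above every control library. Of the 4 Gas5 entries of highest mean level, the other 3 did not pass. Snord78 (LOC115487677) was at 50.3, 55.4 and 62.4 FPKM in CUMS libraries, against 49.3, 36.9 and 46.9 FPKM in control libraries, a change of 0.34 ± 0.136 (limma adjusted p = 0.299). LOC115487638 was at 33.6, 52.8 and 49.3 FPKM in CUMS libraries, against 35.8, 38.6 and 39.1 FPKM in control libraries, with CUMS replicate 1 below all controls, and LOC115487643 was at 14.4, 20.0 and 20.4 FPKM in CUMS libraries, against 14.1, 12.0 and 9.07 FPKM in control libraries. Their changes were 0.23 ± 0.165 and 0.60 ± 0.185 (limma adjusted p = 0.577 and 0.181).

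Of the 10 entries in the other hosts none passed without the block. In Snhg12, the host of H/ACA snoRNAs together with Snord99, Snora44 was at 6.56, 6.80 and 7.50 FPKM in CUMS libraries, against 4.08, 4.68 and 4.06 FPKM in control libraries, groups that did not overlap. Its log2 change was 0.59 ± 0.106 (limma adjusted p = 0.0525, or 0.0167 in the blocked fit). Snora61 was at 5.17, 7.96 and 5.54 FPKM in CUMS libraries, against 2.69, 2.57 and 3.86 FPKM in control libraries (change 0.83 ± 0.183, limma adjusted p = 0.0824, or 0.0320 in the blocked fit). Snord99 and Snora16a differed by 0.87 ± 0.337 and 0.22 ± 0.234 (limma adjusted p = 0.277 and 0.728). The Snora9 of Snhg15 (LOC115487884) differed by 0.48 ± 0.172 and the Snord87 of Snhg6 by 0.50 ± 0.187 (limma adjusted p = 0.243 and 0.264). Snora24, in the exon of Snhg8, was at no more than 0.0146 FPKM in any library and was not tested, while its host was above 20 FPKM.

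The snoRNAs of Snhg3 and Snhg5 come as near-identical pairs, so their values are uncertain, as reads could be assigned to either. Snora73a and Snora73b, each of 205 bp, differ at 7 positions, and Snord50a and Snord50b, each of 72 bp, at 1. The sequences of LOC115487267 (Snord50b) and LOC115487269 (Snord50a), on the minus strand of chromosome 9, are shown to let the likeness be seen.
LOC115487267: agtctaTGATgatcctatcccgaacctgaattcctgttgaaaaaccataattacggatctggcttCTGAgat
LOC115487269: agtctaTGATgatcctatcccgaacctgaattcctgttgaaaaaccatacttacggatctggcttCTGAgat
Snord50b was at 6.86, 4.97 and 6.71 FPKM in CUMS libraries, against 4.09, 2.32 and 4.54 FPKM in control libraries, and its groups did not overlap (change 0.65 ± 0.210, limma adjusted p = 0.202, or 0.0167 in the blocked fit). Snord50a was at 5.60, 5.48 and 8.32 FPKM in CUMS libraries, against 6.67, 4.78 and 5.14 FPKM in control libraries (change 0.18 ± 0.177, limma adjusted p = 0.685). Snora73a and Snora73b each differed by 0.16, with an SE of 0.145 and 0.143 (limma adjusted p = 0.648 and 0.658), against 0.50 for their host.

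**Figure D3:**
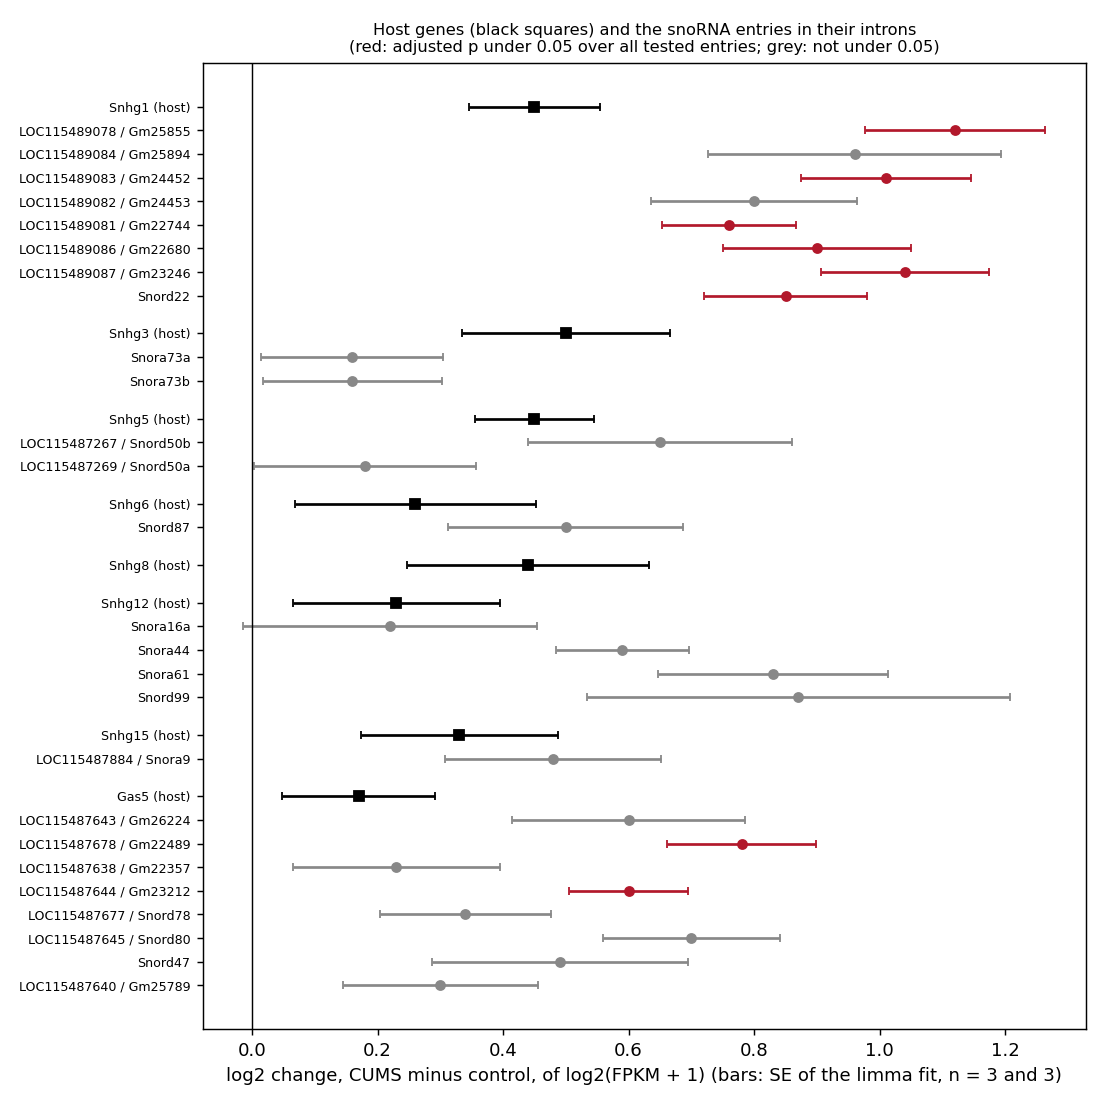
Log2 change, CUMS minus control, with the SE of the limma fit (x axis) for each host (black squares) and, under it, its intronic snoRNA entries (circles, red where the adjusted p is under 0.05, grey otherwise). The red points are the 6 of Snhg1 and the 2 of Gas5, and all points lie to the right of 0.

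Set against their host within a library, the snoRNA entries of 3 hosts were higher in every CUMS library than in every control library. The measure was the mean FPKM of a host's intronic entries as a percent of the host's FPKM, which can be compared between libraries but not between hosts. For Snhg1 it was 23.6%, 28.9% and 25.4% in CUMS libraries, against 14.6%, 20.8% and 18.4% in control libraries. For Snhg12 it was 43.3%, 35.8% and 46.3% in CUMS libraries, against 30.5%, 26.7% and 30.8% in control libraries. For Gas5 it was 19.7%, 20.2% and 22.3% in CUMS libraries, against 15.4%, 17.7% and 17.9% in control libraries. The measure divides by the host level, on which the genes were chosen, so it was not tested. It was formed for no other genes, so the 3 of 7 hosts have no background share beside them. In Snhg3 the percent was lower in CUMS libraries on average, at 20.9 ± 3.35, against 26.0 ± 1.65 in control libraries (SD, n = 3 each), with overlap. Snhg5 averaged 19.8% in both groups, and Snhg6 and Snhg15 overlapped as well.

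**Figure D4:**
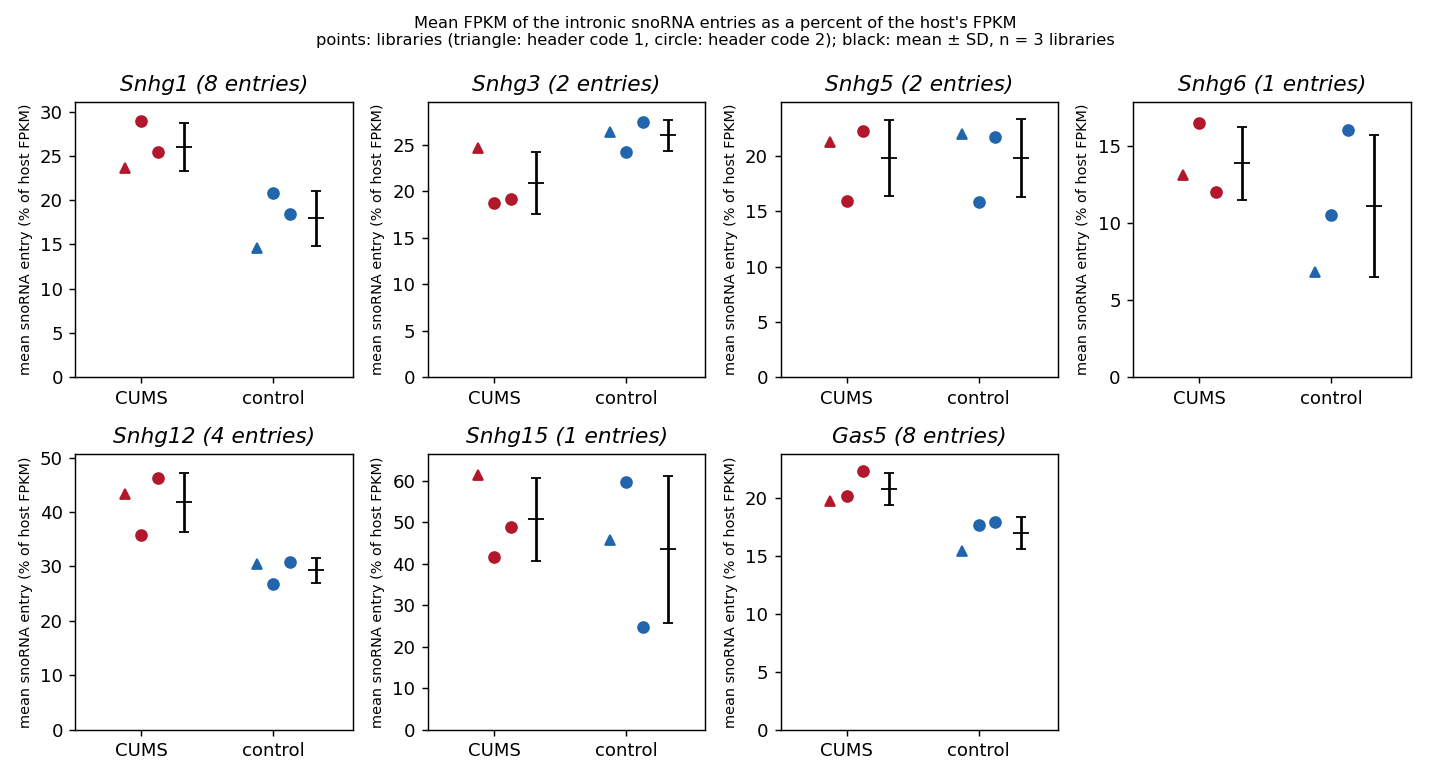
Mean FPKM of a host's intronic snoRNA entries as a percent of the host's FPKM (y axis, from 0) in the CUMS and control libraries, with mean and SD at the right of each group. The CUMS points are above all control points for Snhg1, Snhg12 and Gas5, and Snhg3 leans the other way.

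None of the 3 neighbouring genes tested at the host loci passed in limma, and none had an unadjusted p under 0.05. Slc3a2, which encodes the heavy chain of amino acid transporters, starts 106 bp from Snhg1 on the opposite strand. It averaged 41.8 ± 2.26 FPKM in CUMS libraries and 43.1 ± 3.08 FPKM in control libraries (SD, n = 3 each; log2 change -0.04 ± 0.0945, limma adjusted p = 0.881). Rcc1, which encodes the exchange factor of the GTPase Ran, overlaps Snhg3 on the same strand, so the reads of the shared stretch are uncertain. It averaged 28.4 ± 0.585 FPKM in CUMS libraries and 25.6 ± 1.76 FPKM in control libraries (0.15 ± 0.0893, limma adjusted p = 0.493). Its groups did not overlap, with CUMS above control, as in 10.0% of all tested entries. At the Gas5 locus, Zbtb37, on the opposite strand, differed by -0.16 ± 0.343 (limma adjusted p = 0.883). Mcmdc2, on the opposite strand at Snhg6, was at no more than 0.603 FPKM in any library.

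The machinery around the hosts was described by lists of the genes that package snoRNAs, decay the host RNA or share its TOP start. Of 11 lists, members passed the test only in that of the glucocorticoid receptor and its targets. Counts at an unadjusted p under 0.05 have no share of all entries beside them. Among other noncoding snoRNA hosts, 9 of 13 were tested and none passed in limma (2 higher and 2 lower at an unadjusted p under 0.05). Their median log2 change was 0.06, beside 0.38 for the 8 hosts. As the 8 were chosen on their values in these libraries, these medians are not compared. Snhg20 was at 7.32, 8.99 and 8.62 FPKM in CUMS libraries, against 14.5, 10.3 and 13.8 FPKM in control libraries, lower in all CUMS libraries (-0.57 ± 0.144, limma adjusted p = 0.123). Snhg4 differed by 0.38 ± 0.131 (limma adjusted p = 0.227, or 0.0419 in the blocked fit). None of the 22 protein-coding hosts passed in limma (2 higher at an unadjusted p under 0.05, median 0.12). Ncl, which encodes the nucleolar protein nucleolin, was at 53.2, 58.2 and 53.3 FPKM in CUMS libraries, against 40.7, 32.5 and 34.8 FPKM in control libraries (0.60 ± 0.107, limma adjusted p = 0.0525, or 0.0175 in the blocked fit). Rpl7a, a protein of the large ribosomal subunit, differed by 0.52 ± 0.142 (limma adjusted p = 0.141).

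The proteins that bind mature snoRNAs gave 0 calls of 8 in limma (2 higher at an unadjusted p under 0.05), but 1 in each class passed with the replicate block. Of the 4 C/D box proteins (median 0.20), Nop58, a core protein of the particle, was at 37.4, 36.2 and 33.2 FPKM in CUMS libraries, against 27.7, 23.6 and 23.4 FPKM in control libraries (0.50 ± 0.102, limma adjusted p = 0.0725, or 0.0136 in the blocked fit). Snu13, which binds the kink-turn of these RNAs, differed by 0.22 ± 0.123 (limma adjusted p = 0.444). Of the 4 H/ACA box proteins (median 0.19), Dkc1, the pseudouridine synthase, was at 19.5, 23.2 and 22.0 FPKM in CUMS libraries, against 14.1, 14.6 and 16.4 FPKM in control libraries (0.49 ± 0.105, limma adjusted p = 0.0786, or 0.0187 in the blocked fit). The CUMS libraries were above the control libraries for both Nop58 and Dkc1. Nhp2 differed by 0.23 ± 0.117 (limma adjusted p = 0.410). Of 12 assembly factors none passed in limma (3 higher at an unadjusted p under 0.05, median 0.12), and Nolc1, a chaperone of snoRNA particles, differed by 0.53 ± 0.127 (limma adjusted p = 0.109, or 0.0125 in the blocked fit).

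Factors of RNA decay and of TOP translation gave no call in limma. Of 17 decay factors 1 was higher at an unadjusted p under 0.05 (median 0.08): Upf3b, of the exon junction arm of the pathway, differed by 0.48 ± 0.185 and Magoh, of the exon junction complex, by 0.21 ± 0.111 (limma adjusted p = 0.279 and 0.423). Of 15 regulators in the mTORC1 pathway 1 was higher at an unadjusted p under 0.05 (median -0.04). It was Eif4e, the cap-binding protein, at 30.1, 25.5 and 15.5 FPKM in CUMS libraries, against 14.2, 11.2 and 11.5 FPKM in control libraries (0.85 ± 0.226, limma adjusted p = 0.135, or 0.0208 in the blocked fit). Eif4ebp1, its inhibitor, differed by -0.32 ± 0.149 (limma adjusted p = 0.363, or 0.0378 in the blocked fit). Of 26 TOP mRNAs 3 were higher at an unadjusted p under 0.05 (median 0.12), Rpl7a and Npm1 with the smallest p. Npm1, which encodes nucleophosmin, differed by 0.49 ± 0.165 (limma adjusted p = 0.218).

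Of the 17 tested genes of ribosome biogenesis and Myc, none passed in limma. At an unadjusted p under 0.05 in limma 7 were higher, a count without a background share. In 10 genes every CUMS library was above every control library (58.8%, against 10.0% of all entries). The median of the 17 was 0.24. Wdr12, a large-subunit assembly factor, was at 7.58, 8.02 and 7.73 FPKM in CUMS libraries, against 6.08, 5.08 and 5.43 FPKM in control libraries (0.43 ± 0.101, limma adjusted p = 0.101, or 0.0364 in the blocked fit). Of the 9 tested p53 targets none passed (2 lower at an unadjusted p under 0.05 in limma, median -0.06). Bbc3 differed by -0.41 ± 0.121 and Sesn2 by -0.26 ± 0.112 (limma adjusted p = 0.17 and 0.323).

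In the list of the receptor that Gas5 is known to bind in human cells and of its targets, 3 of 8 tested members were called higher and none lower. Over all entries 0.618% were called higher, and the median of the list was 0.56. The 3 were targets, and the receptor gene itself, Nr3c1, was not called (0.03 ± 0.149, limma adjusted p = 0.951). With the replicate block 6 members were called higher, where 3.49% of all entries were. This list had already been seen to move in these libraries when it was chosen, so its direction is no independent evidence. Ddit4, an inhibitor of mTORC1, was at 20.8, 21.7 and 20.6 FPKM in CUMS libraries, against 11.0, 12.1 and 12.7 FPKM in control libraries (0.77 ± 0.0922, limma adjusted p = 0.012). Klf9, a transcription factor, was at 3.39, 3.90 and 3.23 FPKM in CUMS libraries, against 1.83, 1.67 and 1.59 FPKM in control libraries (0.74 ± 0.114, limma adjusted p = 0.0293). Dusp1, a phosphatase of MAP kinases, was at 237, 205 and 206 FPKM in CUMS libraries, against 138, 145 and 141 FPKM in control libraries (0.61 ± 0.0964, limma adjusted p = 0.0331). The groups of all 3 were apart, whereas those of Gas5 overlapped. Across the lists, the count of 3 became 0 when replicate 2 or 3 of either group was left out, 1 when the CUMS replicate 1 was and 9 when the control replicate 1 was. With the replicate block it was 14.

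**Figure D5:**
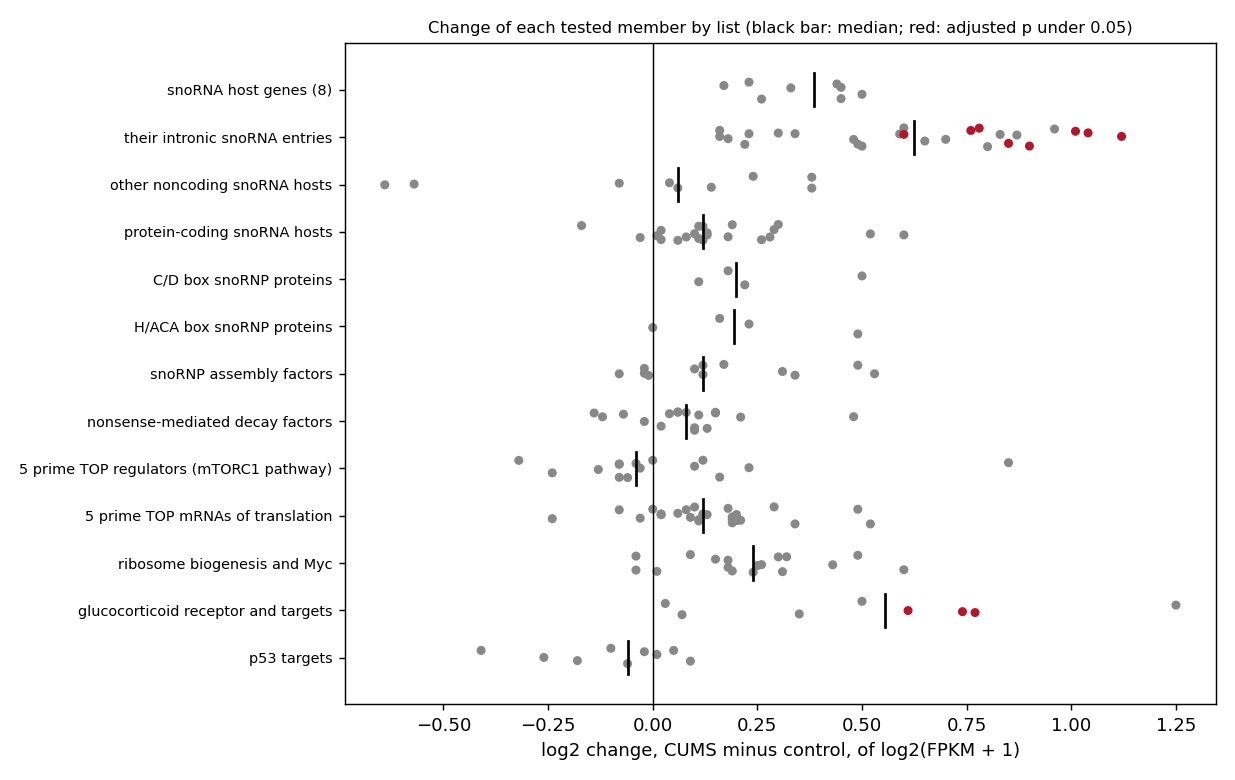
Log2 change, CUMS minus control (x axis), of each tested member of the host set, the intronic snoRNA entries and the 11 lists, with black bars at the medians and red for an adjusted p under 0.05. Red points are found among the intronic snoRNA entries and the glucocorticoid list, and the medians of the other 10 lists lie between -0.06 and 0.24.

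Markers of other cell types and of RNA quality moved between the groups as well. The 6 bone stroma markers summed to 94.5 to 101 FPKM in CUMS libraries and 71.7 to 75.0 FPKM in control libraries. Col1a2 was called higher, and with the replicate block 3 of the 6 were. The 10 B lineage markers summed to 497 to 555 FPKM in CUMS libraries and 595 to 693 FPKM in control libraries. None was called in limma without the block (4 lower at an unadjusted p under 0.05), and 4 were called lower with it. Of the 7 monocyte markers 2 were called lower, or 3 with the block. Their sums were 1010 to 1060 FPKM in CUMS libraries and 1010 to 1210 FPKM in control libraries. Over all 12302 tested entries limma called 56 lower and 76 higher, or 530 lower and 429 higher with the block. The 9 transcripts of the mitochondrial genome summed to 13500 to 15800 FPKM in CUMS libraries and 20200 to 21500 FPKM in control libraries, with none called in limma without the block (8 lower at an unadjusted p under 0.05) and 8 called lower with it. Their part in the levels of the hosts, the snoRNA entries and the lists was not tested.

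The genes whose profile over the 6 libraries was nearest to the mean profile of the 8 hosts were Ddx10, Idi1-ps1, Chek1, Gm7432, Dek and Scoc. Likeness was the root mean square distance between log2(FPKM + 1) profiles, each centred on its own mean, over 12070 genes. The mean host profile was 0.02, 0.28 and 0.23 in CUMS libraries, against -0.04, -0.30 and -0.19 in control libraries. The distance was 0.0357 for Ddx10, a putative RNA helicase of ribosome assembly, 0.0426 for Idi1-ps1, a pseudogene by its name, 0.0489 for the checkpoint kinase gene Chek1, 0.0493 for the pseudogene Gm7432, 0.0529 for the chromatin gene Dek and 0.0562 for Scoc. The median over all genes was 0.265. Ddx10 was at 6.15, 7.23 and 7.16 FPKM in CUMS libraries, against 5.41, 4.36 and 4.98 FPKM in control libraries. Of the hosts themselves Snhg5 was nearest to their mean, at 0.074, and Snhg6 farthest, at 0.225.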

How the data were processed

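RNA of 6 bone marrow libraries was sequenced in paired reads of 151 bp after a TruSeq preparation, per the labels' protocols. The authors deposited 1 value per gene and library (47561 entries). No label names the unit: it was read as FPKM because the deposited values are not whole and, times exon length, sum to about the same total per library. Tools listed in the submitters' processing notes are HISAT2 2.1, featureCounts 1.6.4, cutadapt 1.16.5, bcl2fastq 2.19 and DESeq2 2.11.40.6, and the build mm10, without saying which made the values. Low values did not fall on whole-read steps, so counts were not recovered. Summed FPKM was 593129 to 653026 in CUMS libraries and 561563 to 658595 in control libraries, and no 2 libraries were identical.

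Entries with at least 1 FPKM in at least 3 libraries (12302) were fitted with limma-trend (limma 3.58.1, R 4.3.3) on log2(FPKM + 1), CUMS minus control, group as the only term, and called at a Benjamini-Hochberg adjusted p under 0.05. Tables and figures used Python 3.11.15, pandas 2.3.3, numpy 2.4.6, scipy 1.17.1 and matplotlib 3.10.9. On simulated data this fit recovered 74 of 100 changes of 2.0-fold and 10 of 100 of 1.5-fold, with 0 false calls. With the header code as a term it recovered 100 and 92, with 19 false calls among 211. Most changes of 1.5-fold would thus go uncalled in the fit used here, so a list without calls is not shown to be unchanged. Gene structures and snoRNA sequences came from GENCODE M21 and RefSeq, promoters from RefSeq (GRCm38.p6).

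The 8 hosts, the lists and the tests were chosen with earlier results of these data known. Named were all 8 hosts, up to 4 snoRNA entries a host by highest mean, the list members past the threshold or, where fewer than 2 passed, the 2 of smallest p, and the 6 nearest profiles. Named outside this rule, after their values were seen, were the other Snhg1 entries, LOC115487678, the genes that share a locus, Nr3c1 and Col1a2. Whether each library is a separate animal is not stated, and p-values therefore reflect the spread among the libraries alone, which may be technical.

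Libraries of the same replicate number deviated from their group means together, with correlations across genes of 0.689, 0.452 and 0.363 for replicates 1, 2 and 3. Replicates 2 and 3, all of header code 2, gave about the same values when crossed, 0.459 and 0.362, so matching their numbers added nothing there. Replicate 1 of both groups shares header code 1, so for it pairing and code cannot be told apart. Values with the replicate block are given where they change a call.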

Additional observations from a re-analysis of the deposited data

How the results depend on the processing

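All 8 hosts and all 26 intronic snoRNA entries kept a log2 change above 0 in the fit under each of the 13 other settings, and the median of the hosts, 0.381, ranged from 0.292 to 0.443 when 1 library was left out. As a share of the summed level of the 8 hosts the median was 0.096. The calls moved more: 132 entries (76 higher, 56 lower), 3 list members and 8 intronic entries passed as reported. With no filter on low values there were 36, 1 and 0. With libraries scaled to the same summed FPKM, 65 higher and 101 lower, there were 6 list members and 3 intronic entries, and the median of all entries lay at -0.0359 in place of -0.0017. Quantile normalization gave 199 entries and 6 list members. The replicate block gave 959 entries, 14 list members and 14 intronic entries, the header code as a term 1645, 25 and 13, and the libraries of code 2 alone 2173, 42 and 17. Leaving out 1 library gave 17 to 262 entries, 0 to 9 list members and 0 to 9 intronic entries. The cause of these shifts was not tested. Among the named genes other than the hosts, which were not tested, the replicate block changed no call beyond those given with its value. The exceptions were Dek and Scoc (adjusted p = 0.131 and 0.101 in limma, 0.0451 and 0.0394 with the block), which were named for their profiles. The depth in counts is unknown, so no limit from counting can be set on low entries such as Snora24.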
